A study of Mus musculus with 24 samples.

Results

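The genes described here are the prostaglandin receptors *Ptger1*, *Ptger2*, *Ptger3*, *Ptger4* and *Ptgir* and the enzymes *Ptgs1*, *Ptgs2*, *Ptges*, *Ptges3* and *Hpgd*, chosen by name. A row was found for 9 of these 10 names among 18762 genes, and *Ptger2* was not analysed here. RNA-seq was performed on LSK-SLAM cells, the CD150+ and CD48- part of the lineage-negative, Sca-1+ and c-Kit+ bone marrow cells in which HSCs are enriched, of 5 young and 7 old C57BL/6 Wt mice. By the labels, young mice were 4 to 5 and old mice 20 to 22 months of age, and the study's text gives higher ages for both groups. No mouse of either group carried a mutation or received a treatment according to the labels. Each library was made with the TotalScript kit, suited to low input, from 300 pg of RNA of 15000 sorted cells after removal of ribosomal RNA. The 24 labelled samples are 2 for each mouse, and each mouse had 1 column of values and was counted once.

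Prostaglandins are short-range lipid signals. Phospholipases free arachidonic acid from membranes, the cyclooxygenases encoded by *Ptgs1* and *Ptgs2* convert it to PGH2, and terminal synthases turn PGH2 into PGE2, prostacyclin and related molecules. PGE2 binds the receptors EP1 to EP4 on the cell surface, of which EP2 and EP4 raise cyclic AMP, EP3 mostly lowers it and EP1 acts through calcium, and the dehydrogenase encoded by *Hpgd* inactivates PGE2. PGE2 is known to expand HSCs and to aid their homing and engraftment in experimental settings.

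Levels are given as normalized read counts, a gene's reads relative to the scaled library size and set to 1000000 reads (1 M). Libraries held 0.861 to 5.12 M recovered reads on genes, and 1 read was worth a normalized read count of 0.194 to 1.23. The study's text gives a higher number of sequenced reads, and depth here means the recovered reads on genes. Each mouse label ends in a letter A or B, the meaning of which is not given in the sources used here. Of the mice with letter A, 2 were young and 4 old, with 0.861 to 3.11 M reads. Of those with letter B, 3 were young and 3 old, with 3.23 to 5.12 M reads. Letter and depth therefore cannot be told apart, and each comparison of the ages is given without and with the letter as a covariate. Depth also differed between the ages, with a median of 3.48 M reads in young and 2.22 M in old mice. Young and old mice had 2.05 to 3.11 and 0.861 to 2.22 M within letter A, and 3.48 to 5.12 and 3.23 to 5.00 M within letter B. A fit with the letter thus still leaves age and depth partly mixed. A gene was tested where its mean was at least 10, which left 12354 genes and 8 of the 9 members, and was called at an adjusted p under 0.05.

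The blood stem cell markers *Kit* and *Hlf* had means over all mice of 1508 and 979 normalized read counts, and all 11 markers of that list had a row and a mean of at least 10. Markers of other cells were also read. Summed levels ranged in young and old mice from 195 to 291 and from 149 to 695 for 7 monocyte and macrophage markers, from 122 to 289 and from 77.4 to 738 for 7 erythroid markers, and from 162 to 269 and from 114 to 226 for 5 megakaryocyte and platelet markers. They ranged from 28.5 to 77.9 and from 10.7 to 95.4 for 6 mast cell and basophil markers, from 23.5 to 97.5 and from 18.0 to 121 for 7 lymphoid markers, and from 460 to 691 and from 680 to 971 for 9 stromal and endothelial markers. The last sum held *Vwf*, which LSK-SLAM cells also express, with a mean of 285 ± 60.0 (SD) in the 5 young and 501 ± 154 in the 7 old mice. No marker of these lists had a mean under 1. *Cd34*, a progenitor marker, was the marker called by limma with the letter as a covariate, at 182 ± 53.0 in young and 84.5 ± 10.4 in old mice (log2 fold change -0.99, SE 0.19, adjusted p = 0.00856). The edgeR and DESeq2 fits with the letter, which also called *Ptger4*, called *Cd34* and *Flt3*, another progenitor marker, as lower in old mice, and DESeq2 called *Vwf* as higher. *Flt3* had 54.1 ± 13.6 in young and 30.8 ± 13.0 in old mice (limma with the letter, log2 fold change -1.01, SE 0.23, adjusted p = 0.0523), and the part of these markers in the *Ptger4* difference was not tested.

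Per kilobase of exon, *Ptges3* and *Ptgs1* had the highest levels among the members, with means over the 12 mice of 38.5 ± 22.6 (SD) and 31.6 ± 8.52 normalized read counts per kilobase. The receptors *Ptger4* (19.0 ± 10.3) and *Ptger3* (15.9 ± 4.01) followed. *Hpgd* (5.10 ± 5.18), *Ptges* (4.84 ± 2.52), *Ptgs2* (4.63 ± 1.57), *Ptgir* (3.28 ± 1.83) and *Ptger1* (3.13 ± 2.07) lay lower on the same scale. Of the 8 pairs of neighbours in this order, 3 differed by a two-sided exact permutation test over the signs of the 12 within-mouse log2 differences, unadjusted. *Ptger4* lay below *Ptgs1* in 11 of 12 mice (p = 0.00195), *Hpgd* below *Ptger3* in 10 (p = 0.00195) and *Ptgir* below *Ptgs2* in 10 (p = 0.0200). The other 5 pairs, with p between 0.304 and 0.988, did not differ beyond their spread. The means of *Ptger4* and *Ptger3* were thus the highest among the 4 receptors measured. The place of *Ptges3* rested on the letter, since its mean per kilobase was 17.3 with letter A and 59.8 with letter B. That of *Hpgd* did as well (8.49 with letter A and 1.71 with letter B, where *Ptges*, *Ptgs2* and *Ptgir* lay above it).

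**Figure D1:**
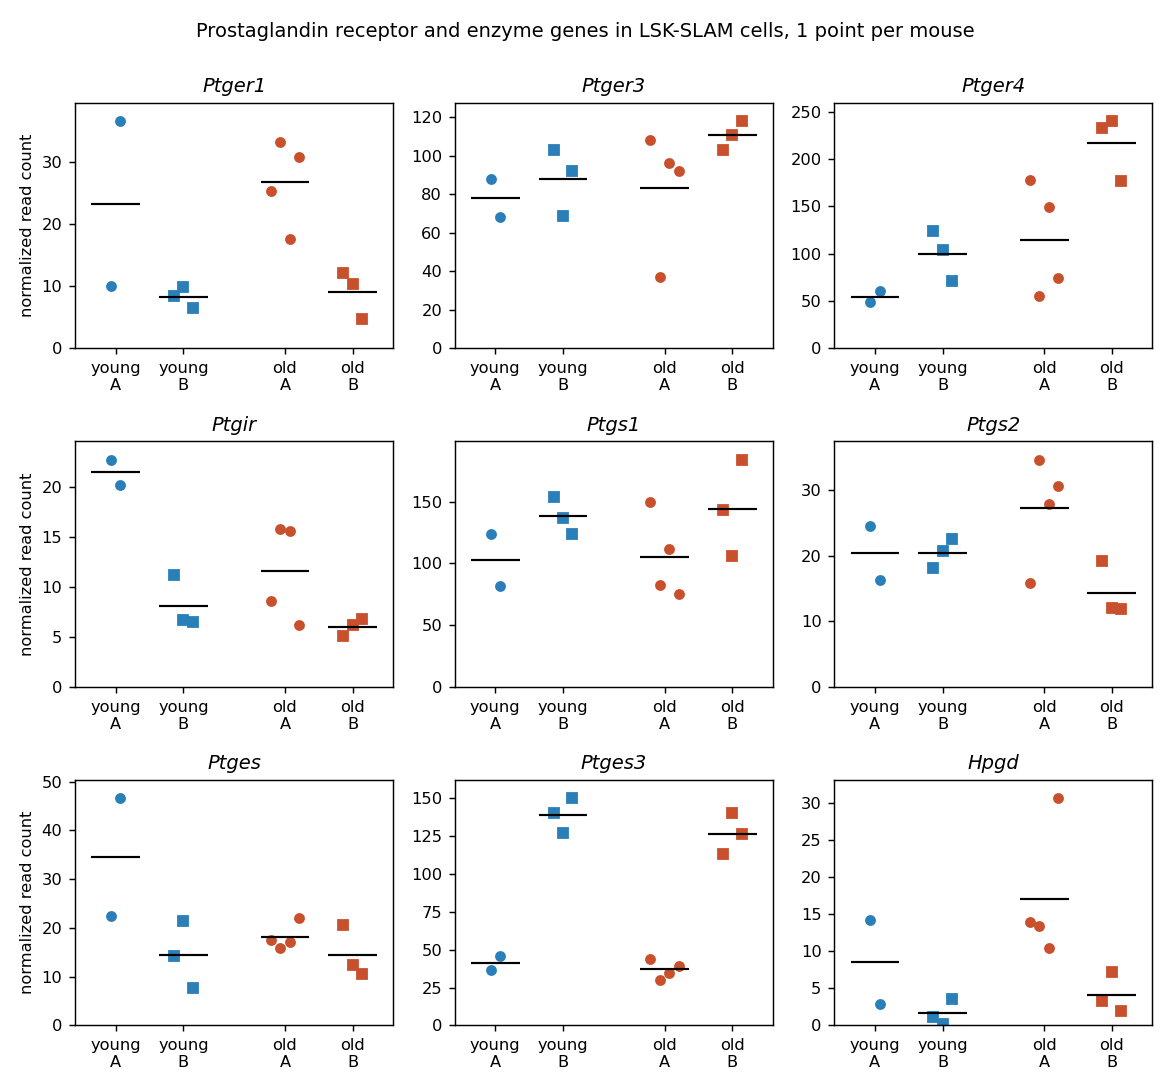
Normalized read counts (y axis, from 0) of the 9 prostaglandin genes in each mouse, grouped on the x axis by age and label letter. Each point is 1 mouse (circles letter A, squares letter B, blue young, orange old) and black lines are group means. *Ptger4* points of old mice lie above those of young mice in letter B, and *Ptges3* separates by letter, from 29.99 to 45.7 against 113 to 150.

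*Ptger4* encodes EP4, a receptor that couples PGE2 to cyclic AMP. Its normalized read count was 48.5, 60.1, 124, 104 and 71.1 in young mice 1 to 5, and ranged from 55.2 to 240 with a median of 177 in the 7 old mice. Of the old mice, 5 lay above the highest young mouse, and old mice 5 and 7 (55.2 and 73.8) lay among the young. The means were 81.5 ± 31.6 (SD, n = 5) and 158 ± 71.6 (SD, n = 7), a ratio of 1.94. The difference passed an unadjusted two-sided exact permutation test over all 792 splits (p = 0.0480, the smallest possible being 0.00126). The permutation tests of the 9 members are unadjusted throughout. It did not pass when mice were exchanged only within a letter (exact permutation test over 300 splits, p = 0.05).

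Across all genes, limma did not call *Ptger4* (log2 fold change 0.86, SE 0.35, adjusted p = 1.0). With the letter as a covariate it lay just outside the threshold (log2 fold change 1.03, SE 0.24, adjusted p = 0.0501) and was gene 39 of 12354 by p. On recovered reads with the letter as a covariate, edgeR (log2 fold change 1.11, adjusted p = 0.0353) and DESeq2 (1.10, adjusted p = 0.00495) called it as higher in old mice. These calls stood against 0.348% of all genes called by edgeR and 0.648% by DESeq2. *Ptger4* was higher in old mice in the 31 other fits compared with the one without the letter and in the 12 that left out 1 mouse with the letter, while the call depended on the fit.

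Within letter B, *Ptger4* was 124, 104 and 71.1 in the young and 233, 240 and 177 in the old mice, a ratio of 2.17. These values did not overlap, which held for 12.9% of the genes tested, and 3 mice against 3 cannot go below p = 0.1 in an exact permutation test. The limma fit on these 6 mice called *Ptger4* (log2 fold change 1.14, SE 0.20, adjusted p = 0.00101), where 0.809% of genes were called. Within letter A, *Ptger4* was 48.5 and 60.1 in the young and 178, 55.2, 149 and 73.8 in the old mice, a ratio of 2.10. These values overlapped (limma log2 fold change 0.91, SE 0.41, adjusted p = 1.0). The age effects of the letters differed by 0.23 on the log2 scale (SE 0.48), and the limma test of this difference was not passed (adjusted p = 1.0).

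Old mice 5 and 7, which had the lowest *Ptger4* levels of the old group, also had the 2 shallowest libraries, with 1.13 and 0.861 M reads. Their *Ptger4* levels rested on 70 and 60 reads. Without these mice, a choice made after the data were seen, the log2 fold change was 1.31 both without (SE 0.23, adjusted p = 0.0125, 0.428% of genes called) and with the letter as a covariate (SE 0.17, adjusted p = 1.31e-05, 1.09% of genes called). Leaving out 1 mouse at a time with the letter in the fit, limma called *Ptger4* without old mouse 5 (adjusted p = 0.00124, 0.659% of genes called) and without old mouse 7 (adjusted p = 0.0297, 0.299% of genes called), and not without any of the other 10. The summed monocyte and macrophage markers, cells that also express *Ptger4*, had a median of 222 in young and 300 in old mice, and their part in the difference was not tested. In bulk samples, fewer cells of a type and less RNA per cell cannot be told apart.

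**Figure D2:**
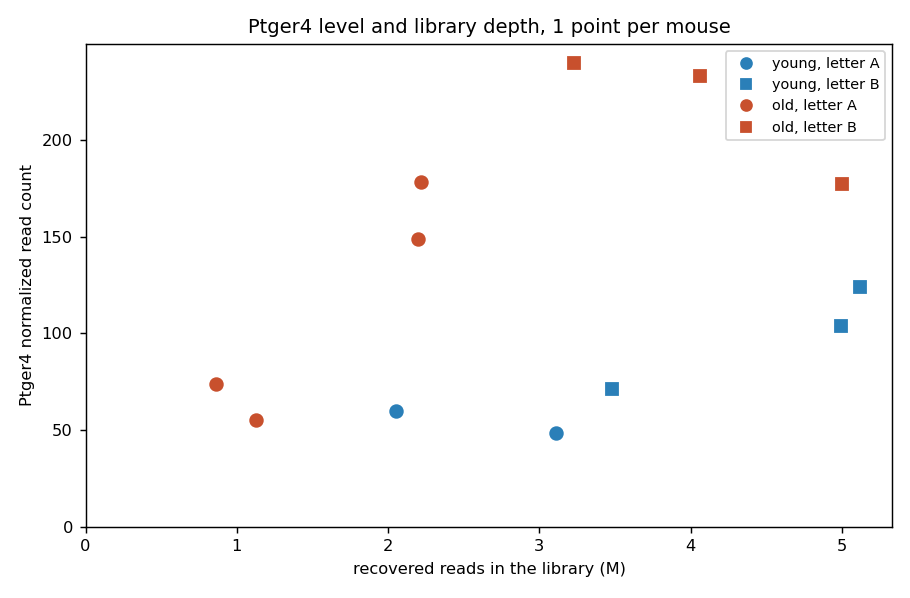
*Ptger4* normalized read count (y axis) against recovered reads per library in M (x axis), 1 point per mouse, with age as colour and label letter as shape. The 2 shallowest libraries are old mice with 55.2 and 73.8, within the range of the young mice, and the other 5 old mice lie between 149 and 240.

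The *Ptger4* gene lies on chromosome 15 (GRCm38, chr15:5206661-5244187, minus strand), and 14.4% of its 50-base exon words also occur in genes on the opposite strand, among them *Ttc33*. Whether reads were counted by strand is not given in the sources used here. *Ttc33* had 25.8 ± 8.10 in young and 24.3 ± 7.23 in old mice (limma log2 fold change -0.09, adjusted p = 1.0). The promoters of *Ptger4* and *Ptger3* are shown because these were the receptors with the highest levels and only the former was called in any comparison of the ages. They are RefSeq sequences (GRCm38.p6) from 250 bases before to 50 bases after the gene start, chr15:5244138-5244437 on the minus and chr3:157566626-157566925 on the plus strand, with GC boxes (GGGCGG on either strand, overlaps counted) in capitals.
Ptger4: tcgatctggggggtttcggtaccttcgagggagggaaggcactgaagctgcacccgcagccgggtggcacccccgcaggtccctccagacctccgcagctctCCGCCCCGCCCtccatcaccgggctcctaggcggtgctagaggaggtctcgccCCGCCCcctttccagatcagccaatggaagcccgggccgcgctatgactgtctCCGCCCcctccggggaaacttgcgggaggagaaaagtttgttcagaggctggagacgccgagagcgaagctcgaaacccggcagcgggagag
Ptger3: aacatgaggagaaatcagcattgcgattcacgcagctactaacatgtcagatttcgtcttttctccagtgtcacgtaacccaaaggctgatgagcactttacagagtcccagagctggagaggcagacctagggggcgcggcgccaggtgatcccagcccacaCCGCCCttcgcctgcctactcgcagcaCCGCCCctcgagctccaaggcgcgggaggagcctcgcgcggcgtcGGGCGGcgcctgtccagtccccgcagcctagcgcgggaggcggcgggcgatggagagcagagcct
The *Ptger4* promoter held 4 GC boxes, of which 2 share a base, and the *Ptger3* promoter held 3. At least 1 GC box was found in 35.7% and at least 3 in 10.7% of 32851 promoters of this length. Of the other members with an entry, *Ptges3* held 4, *Ptgir* and *Ptges* 2, *Ptgs2* and *Hpgd* 1, and *Ptgs1* none. The cyclic AMP response element TGACGTCA was in 1.79% of all promoters and in none of the 8 members with an entry, its half-site TGACG was in 20.8% and in *Ptgs2* and *Ptges3*, and TATAAA was in 13.6% and in *Hpgd*.

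*Ptger3* encodes EP3, which mostly lowers cyclic AMP. Its normalized read count was 88.0, 68.3, 103, 68.5 and 92.0 in young mice 1 to 5, and 37.1 to 118 with a median of 103 in old mice. The groups overlapped, with 4 of the 7 old mice above the highest young mouse, and old mouse 5, at 37.1, lay far below the other 6 old mice (92.2 to 118). The means of 84.0 ± 15.3 and 95.2 ± 27.1 differed by less than the spread between mice (ratio 1.13, exact permutation p = 0.452, limma log2 fold change 0.12, SE 0.25, adjusted p = 1.0). Without the 2 shallowest mice, old mice 5 and 7, the limma log2 fold change was 0.37 without and with the letter (SE 0.16 each). These limma fits, added after the data were seen, gave unadjusted p = 0.0340 and 0.0303 (adjusted p = 0.697 and 0.427). At an unadjusted p under 0.05, 6.50% and 9.72% of all genes passed in them. Within letter B, *Ptger3* was 103, 68.5 and 92.0 in young and 103, 111 and 118 in old mice, which did not overlap before rounding, as for 12.9% of genes (limma log2 fold change 0.35, SE 0.20, adjusted p = 0.708). No exon word of *Ptger3* (chr3:157566892-157645888, plus strand) was shared with another gene.

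*Ptgir* (chr7:16906490-16910905, plus strand), which encodes the prostacyclin receptor, was low in all mice, with 5 to 73 reads per library. Its normalized read count was 22.7, 20.2, 11.2, 6.67 and 6.46 in young mice 1 to 5 and 5.06 to 15.8 (median 6.80) in old mice. The groups overlapped, and the means of 13.4 ± 7.60 and 9.17 ± 4.58 did not differ beyond the spread (ratio 0.682, exact permutation p = 0.240, limma log2 fold change -0.45, SE 0.50, adjusted p = 1.0). Within letter A, where 10.3% of genes had values without overlap, both young mice (22.7 and 20.2) lay above the 4 old mice (6.15 to 15.8), and in letter B the ages overlapped.

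*Ptger1* (chr8:83666678-83672753, plus strand), which encodes EP1, had 9.95, 36.5, 8.44, 9.81 and 6.46 in young mice 1 to 5 and 4.67 to 33.1 (median 17.5) in old mice. The ages overlapped, and the means of 14.2 ± 12.5 and 19.1 ± 10.8 did not differ beyond the spread (ratio 1.34, exact permutation p = 0.490, limma log2 fold change 0.45, SE 0.51, adjusted p = 1.0). The value of *Ptger1* is uncertain, because 63.3% of its exon words are not unique to it.

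Among the cyclooxygenases, *Ptgs1* (COX-1, the form that many cells make at a steady level) had the higher mean per kilobase, 31.6 against 4.63 for the inducible *Ptgs2* (COX-2). *Ptgs1* (chr2:36230426-36252272, plus strand) was 124, 81.7, 154, 137 and 124 in young mice 1 to 5 and 75.0 to 184 (median 112) in old mice. Its means, 124 ± 26.7 and 122 ± 39.1, were nearly equal (ratio 0.982, exact permutation p = 0.907, limma log2 fold change -0.06, SE 0.23, adjusted p = 1.0). *Ptgs2* (chr1:150100031-150108227, plus strand) was 24.6, 16.3, 18.1, 20.8 and 22.6 in young mice 1 to 5 and 11.9 to 34.7 (median 19.2) in old mice. Its means were 20.5 ± 3.33 and 21.8 ± 9.31 (ratio 1.06, exact permutation p = 0.778, limma log2 fold change -0.01, SE 0.32, adjusted p = 1.0). The young mice of *Ptgs2* lay within the range of the old. With letter A *Ptgs2* was higher in old mice (27.3 ± 8.15, n = 4, against 20.5 ± 5.82, n = 2) and with letter B lower (14.4 ± 4.19 against 20.5 ± 2.30, n = 3 each), and neither difference nor the difference between them (limma -0.88, SE 0.60, adjusted p = 1.0) passed the test.

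*Ptges* (chr2:30889471-30929863, minus strand) encodes the inducible microsomal PGE2 synthase. It was 22.4, 46.6, 14.3, 21.4 and 7.64 in young mice 1 to 5 and 10.5 to 22.1 (median 17.0) in old mice. The groups overlapped, with young mouse 2 the highest, and the means of 22.5 ± 14.8 and 16.6 ± 4.13 did not differ beyond the spread (ratio 0.737, exact permutation p = 0.434, limma log2 fold change -0.23, SE 0.38, adjusted p = 1.0). Within letter A the 2 young mice (22.4 and 46.6) lay above the 4 old mice (15.8 to 22.1), and 10.3% of genes had values without overlap there.

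*Ptges3* (chr10:128058954-128077272, plus strand) encodes the cytosolic PGE2 synthase, also known as the HSP90 co-chaperone p23. It was 36.4, 45.7, 140, 127 and 150 in young mice 1 to 5 and 29.99 to 140 (median 43.8) in old mice. Values of both ages fell into a low and a high set that followed the letter. The means of 99.8 ± 54.4 and 75.2 ± 48.4 did not differ beyond the spread (ratio 0.753, exact permutation p = 0.306, limma log2 fold change -0.44, SE 0.45, adjusted p = 1.0). The log2 fold change with the letter in the fit was -0.15 (SE 0.18, limma adjusted p = 0.996). *Ptges3* shares 19.6% of its exon words with a pseudogene and another gene, which may take part of its reads.

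*Hpgd* (chr8:56294585-56321043, plus strand), which encodes the enzyme that starts the inactivation of PGE2, had a mean of 8.59 and was not tested in the main comparison. It rested on 1 to 46 reads per library. Its normalized read count was 14.3, 2.88, 1.18, 0.196 and 3.53 in young mice 1 to 5 and 1.94 to 30.7 (median 10.4) in old mice. Of the old mice, 6 lay above the young median, but the groups overlapped and the means of 4.42 ± 5.69 and 11.6 ± 9.65 did not differ by the exact permutation test (ratio 2.62, p = 0.141, within letters p = 0.0733). With a minimum mean of 1 the limma log2 fold change was 1.39 (SE 0.69, adjusted p = 1.0).

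Taking the members together, limma called 0 of the 8 tested between the ages, where 0.105% of 12354 genes were called, and 0 with the letter as a covariate, where 0.299% were. At an unadjusted p under 0.05, *Ptger4* alone passed in limma, edgeR and DESeq2, without and with the letter, where 3.95% to 5.88% of all genes passed. Without the letter, edgeR and DESeq2 also called 0 members, with 0.146% and 0.469% of all genes called. The median log2 fold change of the members was -0.04 in both limma fits, beside -0.02 and -0.05 for all genes tested. No member had young and old values without overlap over all 12 mice, which 0.461% of genes had. No difference in age effect between the letters was called for any of the 8 members tested (limma adjusted p = 1.0 for each). Of all genes, 0.0162% were called in this fit, and with so few mice of each age and letter it could miss a difference.

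**Figure D3:**
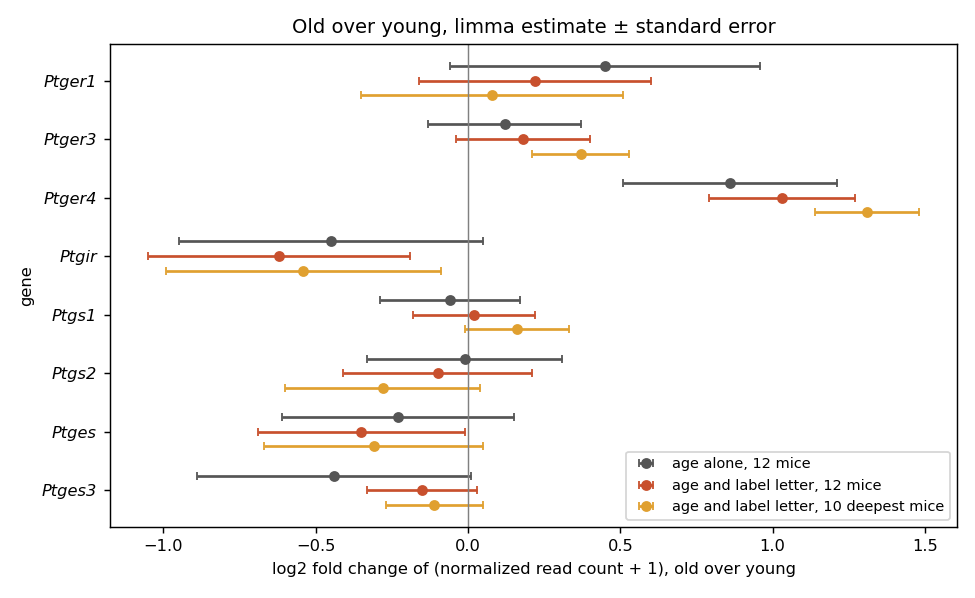
Log2 fold change of the normalized read count + 1, old over young (x axis), for the 8 members tested (y axis), with limma estimates as points and bars of ± 1 standard error. Grey is age alone in 12 mice, orange adds the label letter, and yellow adds the letter in the 10 deepest libraries. *Ptger4* lies at 0.86, 1.03 and 1.31, and the bars of all other members reach or cross 0 in the fit without the letter.

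More members were called between the letters than between the ages, as was the case for all genes. With age in the model, limma called 3 of 8 members between letter B and letter A, where 36.1% of all genes were called. *Ptges3* was higher in letter B (38.4 ± 5.83 in A and 133 ± 13.3 in B, n = 6 each, log2 fold change 1.75, SE 0.18, adjusted p = 3.03e-08). Its values did not overlap between the letters, as for 10.5% of genes. *Ptger4* was also higher in B (94.1 ± 55.1 and 158 ± 69.7, log2 fold change 0.97, SE 0.23, adjusted p = 0.00320). *Ptger1* was lower in B (25.5 ± 10.1 and 8.66 ± 2.74, log2 fold change -1.36, SE 0.38, adjusted p = 0.00755), with the same limit of shared sequence.

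The other 5 members were not called, among them *Ptgs1* (log2 fold change 0.47, adjusted p = 0.0613), *Ptgir* (-0.99, adjusted p = 0.0647) and *Ptges* (-0.71, adjusted p = 0.0983). With a minimum mean of 1, *Hpgd* was called as lower in B (14.3 ± 9.13 in A and 2.89 ± 2.45 in B, limma log2 fold change -1.80, SE 0.52, adjusted p = 0.00892), where 37.0% of genes were called. Over all genes the median difference was -0.09 and turned to 0.24 with median ratio scaling, so each value of B over A is relative to that shift. With that scaling 5 members were called among 47.6% of genes, since *Ptger3* (0.67, adjusted p = 0.0289) and *Ptgs1* (0.77, adjusted p = 0.0110) passed as well, and no member turned its direction. All libraries of letter B were deeper than all of letter A, and the part of depth in these differences was not tested.

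**Figure D4:**
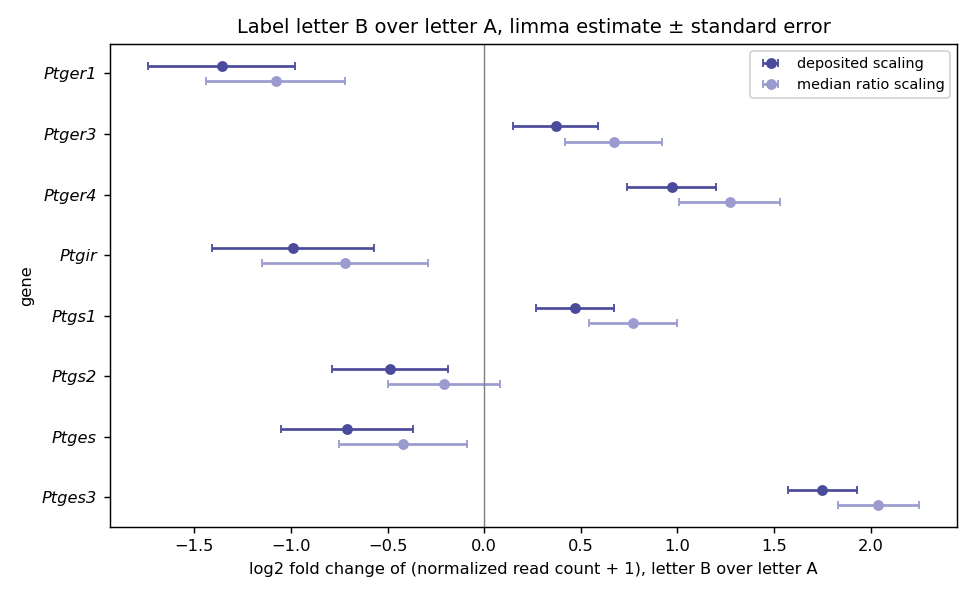
Log2 fold change of the normalized read count + 1, letter B over letter A with age in the model (x axis), for the 8 members tested (y axis), with limma estimates and bars of ± 1 standard error under the deposited scaling (dark) and median ratio scaling (light). *Ptges3* lies farthest to the right at 1.75 and 2.04 and *Ptger1* farthest to the left at -1.36 and -1.08.

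The other genes of the prostanoid pathway were read from 8 lists, which held 72 genes tested. None was called between the ages by limma without or with the letter, with 3 and 7 at an unadjusted p under 0.05, where 3.95% and 5.20% of all genes tested passed, nor by edgeR, with 4 and 6 (3.96% and 5.25% of all genes). DESeq2 called none without the letter, with 4 at an unadjusted p under 0.05 (4.79% of all genes), and 1 with the letter, where 0.648% of all genes were called and 6 had an unadjusted p under 0.05 (5.88% of all genes). This gene was *Pde3b*, a phosphodiesterase that degrades cyclic AMP and that is named here after its values were seen. *Pde3b* was 80.2 ± 6.81 in young and 119 ± 25.2 in old mice (limma with the letter, log2 fold change 0.59, SE 0.18, adjusted p = 0.283).

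In the list of other prostanoid receptors, 5 genes were tested, with a median log2 fold change with the letter of 0.11. The list held *Ptgfrn*, which encodes a regulator of the PGF2alpha receptor and not a prostanoid receptor. *Tbxa2r*, the thromboxane receptor, had 25.6 ± 6.36 in young and 36.2 ± 17.1 in old mice, *Ptgfrn* had 34.3 ± 25.8 and 37.1 ± 13.4, and *Ptgfr*, the PGF2alpha receptor, had 11.7 ± 4.55 and 19.3 ± 13.9. Of the 9 genes tested for arachidonate release (median -0.06), the cytosolic phospholipase gene *Pla2g4a* was the most abundant, at 119 ± 17.7 in young and 153 ± 38.2 in old mice (limma with the letter, log2 fold change 0.40, SE 0.19, adjusted p = 0.912). *Plaa* (73.2 ± 13.8 and 58.8 ± 16.6) and *Daglb* (45.0 ± 14.0 and 41.8 ± 9.86) followed. These genes did not pass the adjusted test.

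The other prostanoid synthases (5 tested, median -0.05) were led by the thromboxane synthase gene *Tbxas1*, at 174 ± 24.5 in young and 169 ± 42.4 in old mice. *Akr1b3* had 36.7 ± 18.5 and 31.4 ± 20.0. *Hpgds*, which encodes the hematopoietic prostaglandin D synthase, had 20.0 ± 6.31 and 37.1 ± 7.80 (limma with the letter, log2 fold change 0.81, SE 0.25, p = 0.00360, adjusted p = 0.337). Among the 5 genes tested for transport and breakdown (median 0.21), the prostaglandin transporter gene *Slco2a1* had 32.0 ± 16.1 and 55.7 ± 9.42 (limma with the letter, log2 fold change 0.83, SE 0.25, p = 0.00247, adjusted p = 0.283). *Slco3a1* had 78.7 ± 16.8 and 88.4 ± 13.8, and *Ptgr2* had 52.5 ± 11.0 and 57.1 ± 13.2. Both *Hpgds* and *Slco2a1* thus passed an unadjusted test only. Of the other pathway genes at an unadjusted p under 0.05 in this fit, *Pde3b*, *Pla2g4a* and *Ccnd1* were higher in old mice. *Rgs2* (limma with the letter, log2 fold change -0.87, p = 0.0126) and *Cxcr4* (-0.46, p = 0.0436) were lower. *Ccnd1*, *Rgs2* and *Cxcr4* are named here after their values were seen.

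Downstream of the receptors, 25 genes of receptor coupling and cyclic AMP were tested, with a median log2 fold change with the letter of 0.06. The G protein genes *Gna13* (608 ± 217 in young and 535 ± 119 in old mice) and *Gnai2* (461 ± 86.8 and 455 ± 140) and the protein kinase A gene *Prkacb* (449 ± 68.2 and 433 ± 141) had the highest means. The 4 genes of receptor desensitisation had a median of -0.16, led by *Arrb1* (258 ± 49.0 and 260 ± 59.8), *Grk2* (252 ± 66.0 and 223 ± 73.1) and *Arrb2* (59.4 ± 17.3 and 49.6 ± 16.0). Among 14 genes that respond to cyclic AMP or PGE2 (median -0.11), *Dusp1* (268 ± 109 and 236 ± 133), *Junb* (172 ± 74.2 and 192 ± 61.2) and *Fosb* (153 ± 92.0 and 180 ± 107) were the most abundant. The lipoxygenase branch, which uses the same arachidonic acid, had 6 genes tested with a median of -0.12, led by *Alox5ap* (111 ± 28.1 and 105 ± 18.5), *Lta4h* (82.7 ± 17.6 and 85.7 ± 16.7) and *Ggt5* (30.5 ± 7.89 and 26.2 ± 10.7). The median over all genes in this fit was -0.05.

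**Figure D5:**
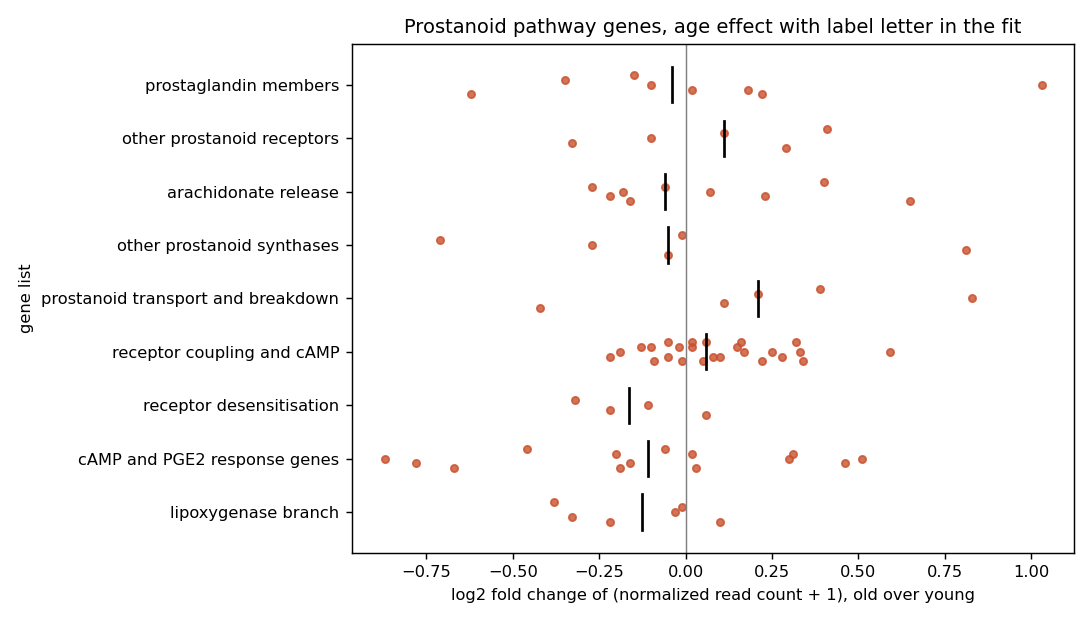
Log2 fold change of the normalized read count + 1, old over young with the label letter in the limma fit (x axis), for the tested genes of the members and of 8 prostanoid pathway lists (y axis). Each point is 1 gene and black bars are list medians, which lie between -0.16 and 0.21. *Ptger4* is the point farthest to the right at 1.03.

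After the means of each age and letter were subtracted, the genes with levels most like *Ptger4*, the receptor with the highest mean normalized read count (not per length), over the 12 mice were *Ube2j1* (Pearson r = 0.975), *Nab1* (0.964) and *Add1* (0.961). For *Ptgs1*, the enzyme with the highest mean on the same scale (per kilobase it was *Ptges3*), they were *Uqcrc2* (0.968), *B4galnt1* (0.953) and *Crk* (0.952). These are the highest of 12353 correlations each over values that share library and depth, and are given as a description.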

How the data were processed

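The deposited values, 1 column for each of 12 mice, are a signal: the authors divided the reads of a gene by a scaled library size and multiplied by 1000000. Submitters' processing notes list FastQC 0.11.8, STAR 2.5.4b, edgeR 3.24.3 and mm10, and the counting tool is not given in the sources used here. A second deposited table of the authors' own comparison between the ages (fold changes, p-values) was not used. Of the values, 100% were whole multiples (tolerance 0.001) of the worth of a single read in its library, so whole reads were recovered. Recovered reads ranged from 0.861 to 5.12 M (1 M is 1000000) per mouse, and values resting on few reads are the least precise.

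The members and lists were chosen with earlier results of these data known. The age of each column came from the labels. Ages were compared with limma 3.58.1 (R 4.3.3; lmFit, eBayes with trend) on log2(value + 1), which understates changes of low genes, over 12354 genes (mean 10 or more), adjusted by Benjamini-Hochberg. Count tests on recovered reads used edgeR 4.0.16 (quasi-likelihood) and DESeq2 1.42.0. For single members, differences of means were tested by exact permutation, two-sided (scipy 1.17.1). Alternatives were other minimum means and pseudocounts, a fit without trend, a fit with the letter, either letter alone, a replicate block, median ratio scaling and leaving out each mouse. Fits without the 2 shallowest mice, leaving out a mouse with the letter in the fit, replicates 1 to 5 without the block, and median ratio scaling with the letter or between letters were added after the data were seen. The procedures were tested on simulated data.

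Named genes are the members, from each list the genes called by limma without or with the letter and the 3 with the highest mean, and for the receptor and the enzyme with the highest mean normalized read count, not per length, the 3 genes with the highest Pearson r. GENCODE vM21 (GRCm38) gave positions, exon lengths and the 50-base words that genes share, and promoters came from RefSeq, with an entry for 8 members. Values of some genes that these rules would name are not reported here.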

Additional observations from a re-analysis of the deposited data

Results flagged for a closer look

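The 9 members were examined in the young and in the old group, 18 groups of mice in all. In 4 of them, 1 mouse stood apart from the others of its age by more than Dixon's 95% critical value. That value is passed by about 1 in 20 groups if each is 1 normal sample. These groups mix both letters and share libraries, so the count cannot be set against that rate. All 4 carried letter A, in which *Ptger1* and *Hpgd* had higher means (25.5 against 8.66 and 14.3 against 2.89 in letter B). *Ptger1* was 36.5 in young mouse 2 (76 reads) against 6.46 to 9.95 in the other young mice. *Ptger3* was 37.1 in old mouse 5 (47 reads) against 92.2 to 118 in the other old mice. *Hpgd* was 14.3 in young mouse 1 (46 reads) against 0.196 to 3.53, and 30.7 in old mouse 7 (25 reads) against 1.94 to 14.0. Old mice 5 and 7 had the 2 shallowest libraries, and the part of depth in these values was not tested. No member tested was called by limma for a difference in age effect between the letters (adjusted p = 1.0 for all 8). Of all genes, 0.0162% were called there.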

How the results depend on the processing

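The call of *Ptger4* between the ages turned on the fit. Members called numbered 0 in limma with all 12 mice, without or with the letter, and 1, *Ptger4*, in letter B alone, in edgeR and in DESeq2 with the letter as a covariate, and without the 2 shallowest mice with or without the letter. Leaving out each mouse gave 0 members without the letter and 0 to 1 with it. Its log2 fold change stayed between 0.70 and 1.31 over 31 alternatives, with adjusted p from 1.31e-05 to 1.0. Between the letters, 3 members were called, where 36.1% of all genes were. Leaving out each mouse gave 3 to 4 members, where 23.3% to 40.6% of genes were called. Median ratio scaling gave 5, where 47.6% were.

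Genes called between the ages numbered 13. They numbered 37 with the letter as a covariate, 43 in edgeR and 80 in DESeq2 with the letter, 58 in DESeq2 without it, 1 in letter A alone, 100 in letter B alone, 5 with median ratio scaling and 32 when the letter was added to it, 22 with a minimum mean of 30, 2 without the variance trend, 49 without the 2 shallowest mice and 125 when the letter was added, and 3 to 32 when leaving out each mouse. The replicate block over replicates 1 to 5 gave 19 genes, against 8 without the block on the same 10 mice, no member called and a *Ptger4* log2 fold change of 1.03 (limma adjusted p = 0.453). For each gene tested, the mean of the mouse's age group was subtracted from its log2(value + 1). Correlations of these deviations between young and old mice of the same number ran from -0.559 to 0.615 over 5 pairs (mean 0.136). Those of mice with different numbers ran from -0.707 to 0.712 over 30 pairs (mean -0.0230). So few pairs, some of them of unlike letters, cannot decide whether the number marks a pairing.

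Directions turned for members near 0, none of them called in any comparison of the ages. *Ptgs1* (-0.06) was 0.00 in letter A, 0.03 in letter B, 0.02 with the letter, 0.05 in edgeR and in DESeq2 with the letter, 0.08 with the replicate block and without it on replicates 1 to 5, 0.16 without the 2 shallowest mice with or without the letter, 0.03 with median ratio scaling and the letter, and -0.20 to 0.04 when leaving out each mouse (-0.08 to 0.13 with the letter, where it was below 0, at -0.02, -0.06, -0.07, -0.08 and 0.00, without young 5, old 1, old 4, young 2 and old 6). *Ptgs2* (-0.01) was 0.37 in letter A, 0.00 with a pseudocount of 5, 0.07 in edgeR and 0.04 in DESeq2 without the letter, and -0.14 to 0.11 when leaving out each mouse (-0.30 to 0.01 with the letter). *Ptges* (-0.23) was 0.05 in letter B and -0.54 to 0.08 when leaving out each mouse. *Ptger3* (0.12) was 0.00 in letter A, and *Ptger1* (0.22 with the letter) was -0.13 to 0.49 when leaving out each mouse. *Hpgd* and *Ptgir* rested on as few as 1 and 5 reads. The 1 read of *Hpgd* was in young mouse 4, with a library of 4.99 M reads. The 5 reads of *Ptgir* were in old mouse 7, with 0.861 M. P-values set a difference against the spread between mice within these libraries, in which letter and depth cannot be told apart.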
